A study of Homo sapiens with 18 samples.

Results

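The 10 genes described here encode subunits of Polycomb repressive complex 2 (PRC2) and were taken by name from the gene count table: EZH1, EZH2, SUZ12, EED, RBBP4, JARID2, AEBP2, MTF2, PHF1 and PHF19. All 10 of 10 were among the 57133 genes of the table, and all 10 were among the 17672 genes that passed the filter on low counts. Their RNA was measured in PGP1, an established line of human induced pluripotent stem cells (PSCs), as wild type (WT) and as PCGF6-KO clones 1 and 2, with 2 RNA-seq libraries for each. Each clone grew from a single sorted cell after a pair of Cas9 gRNAs cut the first exon of PCGF6 and puromycin removed untransfected cells, so each is 1 line with its own homozygous deletion. WT and PCGF6-KO cells were all maintained in mTeSR1 medium on Matrigel, and no source says that the libraries of a group came from separate cultures, so the p-values may measure technical spread only. The study asked whether loss of PCGF6, a subunit of the PRC1.6 form of Polycomb repressive complex 1, disturbs gene expression in human PSCs; its ChIP-seq libraries were not analysed here.

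PRC2 places methyl groups on lysine 27 of histone H3, a mark of silenced genes, and it works beside PRC1, which adds ubiquitin to histone H2A. Its core holds a methyltransferase (EZH2 or EZH1), the scaffold SUZ12, the mark reader EED and the histone chaperone RBBP4 or its paralog RBBP7. A core with one of the Polycomb-like proteins MTF2, PHF1 and PHF19 is called PRC2.1, and a core with JARID2 and AEBP2 is called PRC2.2. In PSCs, PRC2 is known for silencing developmental genes.

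The libraries held 15877396 to 18918609 counts. PCGF6 itself, on chromosome 10, was counted 268 and 300 times in the WT libraries, 99 and 103 times in those of clone 1 and 187 and 159 times in those of clone 2. It fell in PCGF6-KO by 1.15 on the log2 scale (SE 0.268, adjusted p = 0.00914, edgeR). Without WT replicate 1 or 2 this was −1.22 or −1.09, which no longer passed. With each clone set against WT in a fit of 3 groups, the log2 fold change of PCGF6 was −1.67 in clone 1 (adjusted p = 1.03e-10, edgeR). In clone 2 it was −0.77 (adjusted p = 1.21e-05, same test). The 7 markers of pluripotent cells were counted in every library, with summed levels of 5256 to 5476 CPM (counts adjusted for library size by TMM) in WT and 4662 to 4918 CPM in PCGF6-KO, and SOX2 was the 1 of 7 that was called lower. LIN28A had 1655 and 1795 CPM in WT and 1285 to 1498 CPM in PCGF6-KO. DPPA4 had 867 and 868 CPM in WT and 587 to 687 CPM in PCGF6-KO. These genes were lower without being called (log2 fold change −0.29 and −0.44), and NANOG was higher without being called (0.40). Markers of primitive streak and mesendoderm summed to 6.47 to 6.94 CPM in WT, where 3 to 4 of the 9 genes were at 0, and to 659.4 to 830.0 CPM in PCGF6-KO, and all 8 that were tested were called higher. The 5 amnion and surface ectoderm markers summed to 4.08 to 5.71 CPM in WT and 33.4 to 54.0 CPM in PCGF6-KO, and 4 of 5 were called higher. The 4 neuroectoderm markers summed to 72.4 to 73.0 CPM in WT and 32.3 to 35.9 CPM in PCGF6-KO. OTX2, called lower, made nearly all of this sum, at 72.0 and 72.1 CPM in WT and 28.8 to 31.6 CPM in PCGF6-KO. Of the 3 tested, ZIC1 was called higher (log2 fold change 3.32) and PAX6 (1.38) was not called. The 4 endothelial markers summed to 196.9 to 200.2 CPM in WT and 509.4 to 549.8 CPM in PCGF6-KO. KDR, called higher, made most of this sum, at 149.5 and 149.3 CPM in WT and 453.8 to 494.5 CPM in PCGF6-KO. CDH5 was called lower (log2 fold change −1.43). These marker shifts run with every PRC2 difference below, and their part in those differences was not tested. In such bulk RNA, fewer cells of a type and less RNA per cell cannot be told apart.

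PHF19 was the 1 of 10 PRC2 genes called in PCGF6-KO, at a 1.67-fold higher level, and it was called in both clones. Calls required both an adjusted p under 0.05 (quasi-likelihood test of edgeR, Benjamini-Hochberg over all genes) and a log2 fold change beyond 0.6 in either direction. Of all 17672 genes tested, 23.6% were called by this rule, with 14.9% higher and 8.7% lower, so 1 of 10 is below the share over all genes. By adjusted p alone, 4 of 10 were past the threshold (EZH2 and PHF19 at a higher level, RBBP4 and JARID2 at a lower level), where 37.1% of all tested genes were. Over the 10 genes the median log2 fold change was −0.11, against 0.00 over all tested genes. Their median absolute log2 fold change was 0.17, against 0.32 over all tested genes and 0.20 over the 7999 genes within their range of expression. For 8 of 10, all but RBBP4 and PHF19, the 95% interval of the log2 fold change lay wholly within ±0.6. With each clone set against WT, the median absolute log2 fold change of the 10 genes was 0.160 in clone 1 and 0.251 in clone 2. Genes within their range of expression had 0.195 and 0.222. Between the clones the 10 genes had 0.144, against 0.115 for genes within that range.

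**Figure D1:**
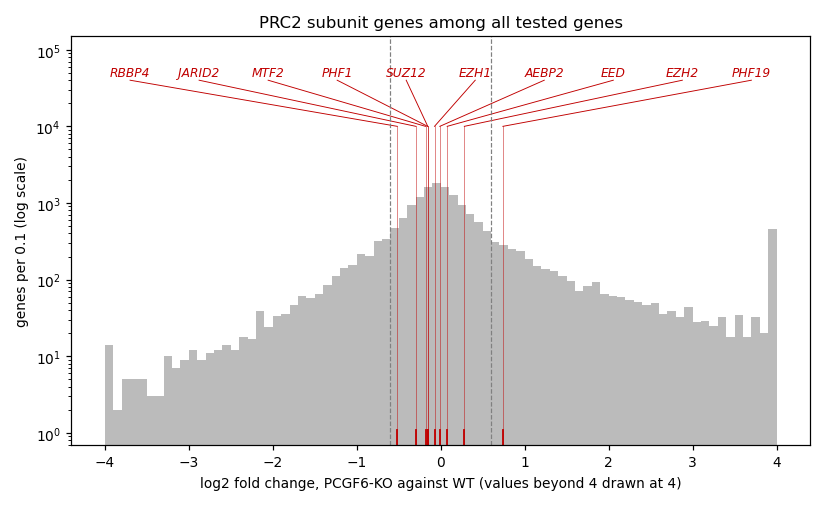
Histogram of the log2 fold change between PCGF6-KO and WT (x axis) over the 17672 genes tested, as genes per 0.1 on a log scale (y axis), with values beyond 4 drawn at 4. Red lines mark the 10 PRC2 genes and dashed lines mark ±0.6; PHF19 at 0.74 is the only red line outside the dashed lines.

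The Polycomb-like genes MTF2, PHF1 and PHF19 encode proteins with a Tudor domain and PHD fingers that help to bring PRC2 to unmethylated CpG-rich DNA. PHF19 lies on chromosome 9 of GRCh38 (120855651 to 120894896, reverse strand). It had 28.4 and 23.2 CPM in WT, 42.9 and 36.6 CPM in clone 1, and 45.9 and 47.1 CPM in clone 2. Every PCGF6-KO library was above both WT libraries. The 4 and 2 libraries did not overlap for 6 of the 10 PRC2 genes (EZH2, SUZ12, RBBP4, JARID2, MTF2 and PHF19), nor for 57.1% of all tested genes. Its mean rose from 25.8 ± 3.71 CPM (SD, n = 2) in WT to 43.1 ± 4.70 CPM (n = 4) in PCGF6-KO. The log2 fold change was 0.74 (95% interval 0.45 to 1.03, adjusted p = 0.00188, edgeR). Of all tested genes, 25.9% had a larger absolute change. Over the alternatives the log2 fold change ran from 0.60 to 0.89 and the adjusted p up to 0.0323.

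MTF2, on chromosome 1 (93079235 to 93139079, forward strand), is the Polycomb-like protein best known from PSCs. It had 109.8 and 109.9 CPM in WT, 95.6 and 96.9 CPM in clone 1, and 92.3 and 102.9 CPM in clone 2, so that each PCGF6-KO library was below both WT libraries. The log2 fold change of −0.18 (95% interval −0.33 to −0.03, adjusted p = 0.056, edgeR) did not pass the test. PHF1, on chromosome 6 (33410399 to 33416453, forward strand), had 43.0 and 41.5 CPM in WT, 42.1 and 40.8 CPM in clone 1, and 34.6 and 34.2 CPM in clone 2. Clone 1 overlapped WT and clone 2 lay below it, and the log2 fold change of all PCGF6-KO libraries was −0.16 (standard error 0.104, adjusted p = 0.274, same test).

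**Figure D2:**
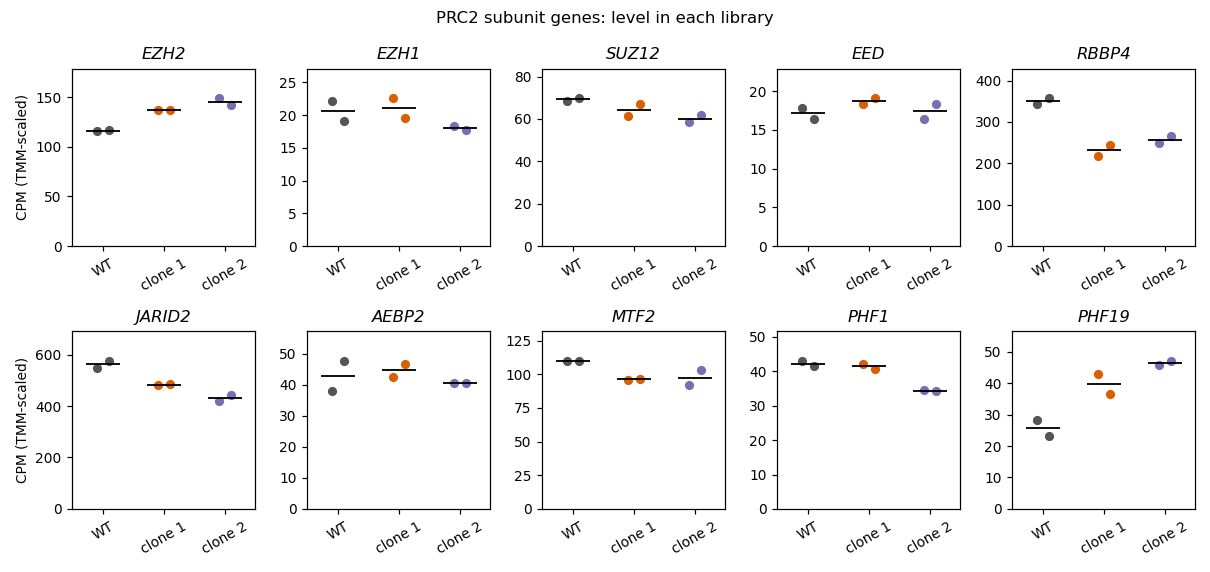
Level of each of the 10 PRC2 genes in CPM (y axis, from 0, with its own scale in each panel) in WT, PCGF6-KO clone 1 and PCGF6-KO clone 2 (x axis). Points are libraries and bars are the means of 2; the 4 PCGF6-KO points of PHF19 lie at 36.6 to 47.1 CPM, above the WT points at 23.2 and 28.4 CPM, and those of RBBP4 lie below the WT points.

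Among the core genes, RBBP4 stood farthest from WT. RBBP4, which binds histones H3 and H4 in PRC2 and in several other chromatin complexes, lies on chromosome 1 (32651142 to 32686211, forward strand). It had 342.9 and 357.7 CPM in WT, 218.6 and 245.3 CPM in clone 1, and 249.6 and 265.0 CPM in clone 2. The 4 PCGF6-KO libraries were all below WT, and the mean of 244.6 ± 19.3 CPM (SD, n = 4) against 350.3 ± 10.5 CPM (n = 2) was 1.43-fold lower. The log2 fold change was −0.52 (95% interval −0.69 to −0.34, adjusted p = 0.000885, edgeR), which passed the threshold of p but not that of fold change. Of the exonic bases of RBBP4 in GENCODE, 22.8% (2160 of 9470) are also exonic in SYNC on the opposite strand. SYNC was counted 0 times in each WT library and 8 to 16 times in those of PCGF6-KO. The strand setting of the counting is not given in the sources used here, and the part of this overlap in the RBBP4 difference was not tested.

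EZH2, the methyltransferase that prevails in dividing cells, lies on chromosome 7 (148807257 to 148884321, reverse strand). It had 115.4 and 116.5 CPM in WT, 136.5 CPM in both libraries of clone 1, and 148.9 and 141.8 CPM in clone 2. All 4 PCGF6-KO libraries were above WT, and the log2 fold change of 0.28 (95% interval 0.14 to 0.43, adjusted p = 0.00776, edgeR) was under the fold limit. Without WT replicate 1 or without WT replicate 2 its adjusted p no longer passed, reaching 0.086 at most. EZH1, the methyltransferase of lower activity found also in resting cells, lies on chromosome 17 (42700275 to 42745049, reverse strand). It had 22.1 and 19.1 CPM in WT, and its PCGF6-KO libraries at 17.7 to 22.6 CPM overlapped them (log2 fold change −0.07, adjusted p = 0.679, same test).

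SUZ12, the scaffold on which the complex assembles, lies on chromosome 17 (31937007 to 32001038, forward strand). It had 68.6 and 69.8 CPM in WT and 58.5 to 66.8 CPM in PCGF6-KO, without overlap, yet its log2 fold change of −0.15 (95% interval −0.32 to 0.01) had an adjusted p of 0.13 in edgeR. EED, which binds the finished mark and stimulates the enzyme, lies on chromosome 11 (86201212 to 86278813, forward strand). It had 17.8 and 16.4 CPM in WT and 16.4 to 19.1 CPM in PCGF6-KO, where the groups overlapped. Its log2 fold change was 0.08 (95% interval −0.16 to 0.31, adjusted p = 0.602, same test).

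Of the PRC2.2 genes, JARID2 was lower in PCGF6-KO by less than the fold limit, while AEBP2 showed no difference past the test. JARID2, a Jumonji family protein without demethylase activity that binds the PRC2 core, lies on chromosome 6 (15246069 to 15522042, forward strand). It had 549.2 and 575.0 CPM in WT, 480.6 and 485.7 CPM in clone 1, and 420.9 and 444.1 CPM in clone 2, the 3 groups being without overlap. The log2 fold change was −0.30 (95% interval −0.46 to −0.13, adjusted p = 0.0112, edgeR), and its adjusted p reached 0.123 at most and no longer passed when either WT library was left out. AEBP2, a zinc finger protein that stabilises the complex, lies on chromosome 12 (19404045 to 19720801, forward strand). It had 38.1 and 47.6 CPM in WT, which enclosed its PCGF6-KO libraries at 40.5 to 46.8 CPM. Its log2 fold change was −0.01 (95% interval −0.25 to 0.23, adjusted p = 0.949, same test), with a sign that changed between alternatives.

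Promoter sequences of the genes on which these results turn were taken from RefSeq (GRCh38.p14, 250 bases before and 50 after each start), which held all 10 genes with 14 windows. They were searched on both strands for the E-box CACGTG, bound by MYC and MAX, for the element GCGGGAA, bound by E2F6, and for the E2F site TTTGGCGC; MAX and E2F6 are DNA-binding subunits of PRC1.6. The windows of PHF19 and RBBP4, shown for the gene that rose and for the core gene farthest below WT, read 5′ to 3′ on the gene's strand with the element in capitals, and hold no base of an annotated exon of their gene. That of PHF19 is chr9:120877189-120877438 and lies before a RefSeq start that is internal to the gene's span in GENCODE, downstream of the first base of that span. That of RBBP4 is chr1:32650958-32651141, the bases of its window before the GENCODE span.
PHF19: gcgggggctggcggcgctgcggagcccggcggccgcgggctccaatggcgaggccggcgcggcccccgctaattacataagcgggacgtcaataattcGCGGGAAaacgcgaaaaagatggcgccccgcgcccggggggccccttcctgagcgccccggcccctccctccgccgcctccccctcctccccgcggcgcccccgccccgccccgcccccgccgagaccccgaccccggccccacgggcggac
RBBP4: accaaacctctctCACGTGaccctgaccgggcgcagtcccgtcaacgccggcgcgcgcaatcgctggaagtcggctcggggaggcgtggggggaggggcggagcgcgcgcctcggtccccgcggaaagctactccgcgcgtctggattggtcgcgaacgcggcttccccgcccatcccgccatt
The first base of GCGGGAA lies 152 bases before this internal start of PHF19, and that of CACGTG lies 237 bases before the RefSeq start of RBBP4.

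Matches in 3 other PRC2 genes, shown as 30 bases with the element in capitals, allow the same letters to be set beside genes with other responses. SUZ12 holds the reverse complement of GCGGGAA 188 bases before its start (chr17:31936808-31936837), MTF2 holds GCGGGAA 6 bases after its start (chr1:93079277-93079306), and EZH2 holds TTTGGCGC 2 bases after its start (chr7:148884272-148884301).
SUZ12: gacccctaattTTCCCGCgaattcagttca
MTF2: accggcagtccGCGGGAAaccaaaatggcg
EZH2: gggctgccgcgTTTGGCGCtcggtccggtc
GCGGGAA occurred in 3 of 10 PRC2 genes (PHF19, SUZ12 and MTF2), in 6.55% of all 35116 windows and in 12.3% of the 11936 tested genes with a window. CACGTG occurred in 1 of 10 (RBBP4), in 7.26% of all windows and 12.2% of tested genes. TTTGGCGC occurred in 1 of 10 (EZH2), in 0.652% of all windows and 1.32% of tested genes. Of the 3 genes with GCGGGAA, PHF19 rose, whereas SUZ12 and MTF2 had log2 fold changes of −0.15 and −0.18 that did not pass the test. A match describes the letters in the window and does not show that a factor binds there.

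Each clone was then compared with WT in a fit of the 3 groups, where the clones share the WT libraries and one estimate of spread. In clone 1, PHF19 was the 1 of 10 called (log2 fold change 0.62, standard error 0.103, adjusted p = 1.52e-05, edgeR), where 24.8% of all tested genes were called. This call sat at the fold limit, with a log2 fold change of 0.49 without WT replicate 2 and 0.50 without clone 1 replicate 1, at which no PRC2 gene was called. In clone 2, PHF19 was again the 1 of 10 called (0.85, standard error 0.102, adjusted p = 1.01e-07), where 29.4% of all tested genes were called. RBBP4 was just under the limit in clone 1, at −0.59 (adjusted p = 9.27e-09), and was −0.45 in clone 2 (adjusted p = 9.61e-07). It was called as well in clone 1 by DESeq2 (−0.60), under upper-quartile normalization (−0.62), at a fold change over 1.5, and without WT replicate 1 (−0.63) or clone 1 replicate 2 (−0.68).

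By adjusted p alone, 5 of 10 were past the threshold in clone 1, where 45.3% of all tested genes were, and 7 of 10 in clone 2, where 50.4% were. EZH2 (0.24 in clone 1 and 0.33 in clone 2), JARID2 (−0.22 and −0.38) and MTF2 (−0.19 and −0.17) were past it in both clones at log2 fold changes under the limit. MTF2 no longer passed in 4 of 11 alternatives in clone 1 and in 6 of 11 in clone 2, DESeq2 among both, and its clone 2 value was −0.092 (adjusted p = 0.426, edgeR) without clone 2 replicate 1. SUZ12 (−0.20, adjusted p = 0.0266) and PHF1 (−0.30, adjusted p = 0.00515, edgeR) were past it in clone 2, with −0.11 (adjusted p = 0.247) and −0.03 (adjusted p = 0.812) in clone 1. SUZ12 no longer passed in clone 2 in 5 of 11 alternatives, with an adjusted p of up to 0.193. JARID2 in clone 1 (adjusted p = 0.0625 without WT replicate 2) and PHF1 in clone 2 (adjusted p = 0.0567 without WT replicate 1) no longer passed in 1 of 11 each. EZH1, EED and AEBP2 were past it in neither clone, at log2 fold changes between −0.19 and 0.13.

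**Figure D3:**
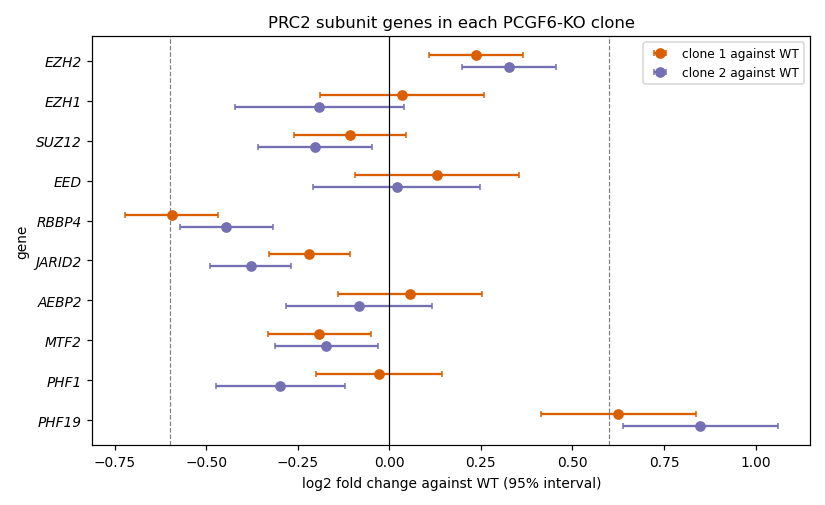
Log2 fold change against WT (x axis) of the 10 PRC2 genes (y axis) in clone 1 and clone 2, from the fit of 3 groups. Points are estimates, bars are 95% intervals, and dashed lines mark ±0.6; PHF19 lies beyond the dashed line in both clones, at 0.62 and 0.85, and RBBP4 at −0.59 touches it in clone 1.

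Set against each other, the clones differed by less than the fold limit in all 10 PRC2 genes. No gene of the 10 was called by edgeR's quasi-likelihood test, where 7.87% of all tested genes were called, and none by DESeq2. By adjusted p alone, 2 of 10 were past the threshold, against 19.5% of all tested genes. JARID2 was −0.16 in clone 2 relative to clone 1 (standard error 0.0538, adjusted p = 0.0367, edgeR) and PHF1 was −0.27 (standard error 0.0851, adjusted p = 0.0256). The difference of PHF19 was 0.22 (95% interval 0.02 to 0.42, adjusted p = 0.112) and that of RBBP4 was 0.15 (95% interval 0.02 to 0.28, adjusted p = 0.0948). The adjusted p of PHF19 passed without clone 1 replicate 1 (difference 0.35, adjusted p = 0.0249), and that of RBBP4 passed without clone 1 replicate 2 (0.23, adjusted p = 0.00863). PCGF6 itself was 0.90 higher in clone 2 than in clone 1 on the log2 scale (adjusted p = 5.44e-05, edgeR). This is RNA counted over the gene and not a level of PCGF6 protein. The paper checked the knockout by genomic PCR and Western blot as well.

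The 10 genes spanned a wide range of levels in TPM (counts divided by the deposited gene length and scaled to a common sum). In WT, JARID2 was the highest at 415.8 TPM (405.4 and 426.2 in its libraries), followed by RBBP4 at 164.6, EZH2 at 114.1, MTF2 at 82.7, PHF1 at 52.3 and SUZ12 at 47.0 TPM. AEBP2 at 29.04, PHF19 at 17.1, EZH1 at 13.1 and EED at 10.9 TPM were the lowest. The WT libraries of neighbours in this order did not overlap, the closest pair being EZH1 (12.2 and 14.1 TPM) and EED (10.4 and 11.3 TPM). In PCGF6-KO, EZH2 (129.3 to 134.9 TPM) stood above RBBP4 (100.2 to 115.4 TPM), and PHF19 (23.9 to 28.8 TPM) overlapped AEBP2 (25.2 to 31.3 TPM). PHF1 and SUZ12, and EZH1 and EED, overlapped too in PCGF6-KO.

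This order depends on the length used. Per kilobase of the longest coding sequence, RBBP4 was the highest in WT at 274.7 CPM per kilobase, followed by JARID2 at 150.4, MTF2 at 61.8 and EZH2 at 51.5, and RBBP4 stayed above EZH2 in PCGF6-KO (191.9 against 62.6). On that scale EZH2 stood below MTF2 in WT and above it in PCGF6-KO, with 60.6 to 66.1 CPM per kilobase in PCGF6-KO against 51.9 to 57.8 for MTF2. EED at 11.4 and EZH1 at 9.19 CPM per kilobase were again the lowest in WT. The TPM of the 10 genes together, a sum that JARID2 dominates, came to 931.4 and 961.6 in the WT libraries. It was 820.9 and 848.4 in those of clone 1, and 743.2 and 774.7 in those of clone 2. TPM was not adjusted by TMM, whose factors were 1.027 and 1.022 in WT and 0.9655 and 0.9601 in clone 2. The size of this fall thus depends on the scale.

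Within the family of Polycomb-like genes, PHF19 held a higher share of the summed TPM in each PCGF6-KO library than in either WT library. Its share was 12.2 and 10.3% in the WT libraries, 18.6 and 16.4% in those of clone 1, and 21.3 and 20.6% in those of clone 2. The means of 11.2 ± 1.34% (SD, n = 2) and 19.2 ± 2.21% (n = 4) differed by 8.02 percentage points (exact permutation test, two-sided, p = 0.133, 0.178 adjusted over 4 shares). With 2 against 4 libraries, 0.133 is the smallest p that the 15 splits allow, so no share could pass 0.05. The splits treat libraries as independent, though the 2 libraries of WT and of each clone come from 1 line. The p-values of the 4 shares thus do not measure the spread between lines. MTF2 held 53.5 and 55.4% in WT and 47.2 to 51.4% in PCGF6-KO, a difference of −5.23 points (exact permutation p = 0.133, adjusted 0.178). PHF1 held 34.4% in both WT libraries, 34.1 and 34.2% in those of clone 1, and 30.0 and 28.02% in those of clone 2.

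JARID2 and AEBP2, the PRC2.2 genes, together held 73.6 and 75.4% of the TPM of the 5 accessory genes in the WT libraries, 71.6 and 72.6% in those of clone 1, and 70.4 and 70.2% in those of clone 2. The difference was −3.31 points (exact permutation p = 0.133, adjusted 0.178), without overlap of the groups. EZH2 held 89.0 and 90.4% of the summed TPM of EZH1 and EZH2 in WT and 90.3 to 92.6% in PCGF6-KO, where the groups overlapped (2.05 points, exact permutation p = 0.267, adjusted 0.267). The shares depend on the length used. By coding length, the means in WT and PCGF6-KO were 63.79 and 59.77% for JARID2 with AEBP2, and 84.86 and 87.75% for EZH2. Of the Polycomb-like genes, MTF2 held 61.19 and 54.06% on that scale, and PHF19 held 14.21 and 23.81%. These are shares of RNA, and the protein of each subunit was not measured in these libraries.

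**Figure D4:**
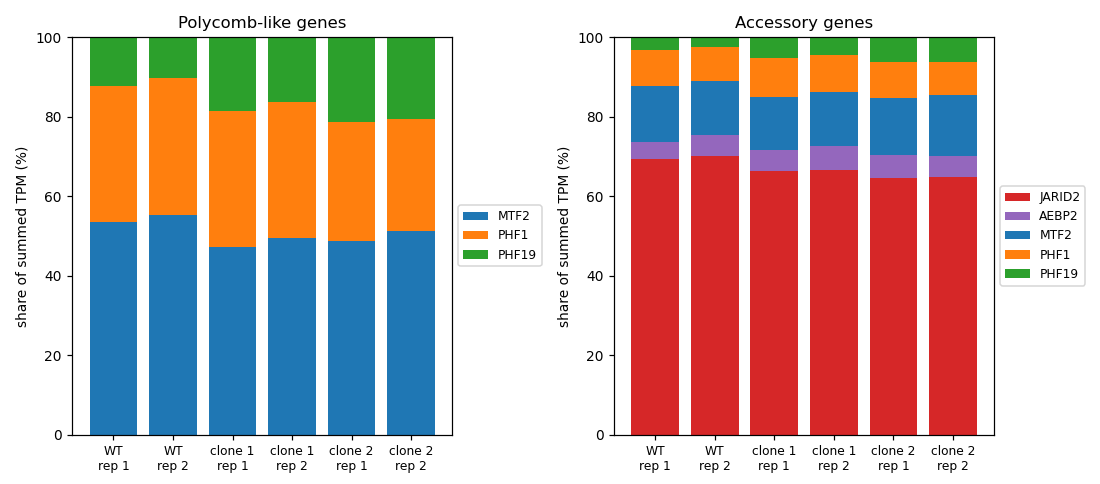
Share of the summed TPM (y axis, in percent) held by each gene in each of the 6 libraries (x axis), for the Polycomb-like genes on the left and for all 5 accessory genes on the right. PHF19, the top segment of each bar, is wider in the 4 PCGF6-KO libraries than in the 2 WT libraries, at 16.4 to 21.3% of the Polycomb-like genes against 10.3 and 12.2%.

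Genes that work with PRC2 or against its mark were read from a list of 19, of which 18 were tested by their symbol. EZHIP, an inhibitor of PRC2, stands in the table under its older symbol CXorf67 with 0 to 5 counts a library and was not tested. Of the 18, 3 were called higher (14.9% over all tested genes were) and 1 was called lower (8.7% over all tested genes), and 3 and 1 were also called higher and lower in clone 1 (16% and 8.8% over all tested genes) and in clone 2 (16.9% and 12.5%). The list had a median log2 fold change of 0.00. By adjusted p alone, 8 of 18 were past the threshold, where 37.1% of all tested genes were.

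EPOP, which joins PRC2.1 and links it to Elongin, was the list member with the largest change. It was counted 22 and 7 times in the WT libraries, 442 and 485 times in those of clone 1, and 377 and 321 times in those of clone 2, without overlap. It rose 25.5-fold (log2 fold change 4.67, standard error 0.32, adjusted p = 7.97e-06, edgeR), and the log2 fold change was 4.06 without WT replicate 2 and 5.73 without WT replicate 1. KDM6B, a demethylase that removes the PRC2 mark, was counted 294 and 259 times in the WT libraries, 1059 and 989 times in those of clone 1, and 1116 and 956 times in those of clone 2, and rose 3.44-fold (adjusted p = 2.69e-06, same test).

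ASXL3, a partner of the deubiquitinase BAP1 that acts on the PRC1 mark, went from 31 and 22 counts in the WT libraries to 70 to 101 in those of PCGF6-KO and rose 2.85-fold (adjusted p = 0.00134, edgeR). RBBP7, the paralog that can take the place of RBBP4 in the core, was counted 2530 and 2501 times in the WT libraries, 1795 and 1747 times in those of clone 1, and 1749 and 1583 times in those of clone 2, and fell 1.58-fold (log2 fold change −0.66, adjusted p = 3.1e-05). Both paralogs were thus lower in every PCGF6-KO library than in WT, RBBP7 past the fold limit and RBBP4 short of it.

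**Figure D5:**
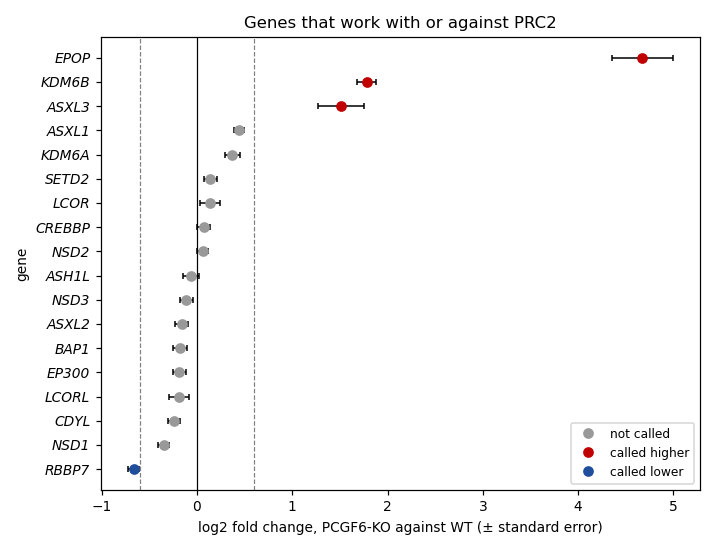
Log2 fold change between PCGF6-KO and WT (x axis) for the 18 tested genes that work with PRC2 or against its mark (y axis, sorted by value), with standard errors as bars and dashed lines at ±0.6. Red points were called higher (EPOP 4.67, KDM6B 1.78, ASXL3 1.51), the blue point was called lower (RBBP7 −0.66), and grey points were not called.

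RBBP4 also serves the nucleosome assembly factor CAF-1, the NuRD complex and the SIN3 complex. Of 17 other genes of these complexes, all tested, 1 was called and 8 were past the threshold by adjusted p alone, where 23.6% and 37.1% of all tested genes were, and their median on the log2 scale was −0.04. The called gene, at a higher level, was CHD3, a chromatin remodeller of NuRD, at 941 and 1083 counts in the WT libraries and 1594 to 1945 in those of PCGF6-KO (0.74 on the log2 scale, adjusted p = 7.43e-05). EZH2 is known to be more abundant in dividing cells, so 18 cell division genes were read beside it. They summed to 4683 and 4720 CPM in WT and 3843 to 4098 CPM in PCGF6-KO, without overlap, with a median log2 fold change of −0.17. Of the 18, 1 was called, at a lower level: MCM5, a subunit of the replicative helicase, which had 5982 and 5930 counts in the WT libraries and 3401 to 4427 in those of PCGF6-KO (−0.75 on the log2 scale, adjusted p = 0.000303, edgeR), where 23.6% of all tested genes were called. By adjusted p alone 10 of 18 were past the threshold, 9 at a lower level and 1 at a higher level, against 37.1% of all tested genes. The gene at a higher level, named after its value was seen, was TYMS, which makes thymidylate (0.29, adjusted p = 0.0248, edgeR). Their summed level was thus lower in PCGF6-KO, as was RBBP4 and unlike EZH2, and its part in either difference was not tested.

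The genes whose levels ran most like those of PHF19 over the 6 libraries were MAPK7, a kinase of the ERK5 pathway, and CREB3L1, a transcription factor of the endoplasmic reticulum. Their Euclidean distances to PHF19 in centred log2 CPM were 0.155 and 0.171, the smallest among 6193 genes that averaged 5 log2 CPM or more. MAPK7 had 53.3 and 48.9 CPM in WT and 74.6 to 88.9 CPM in PCGF6-KO, and CREB3L1 had 28.3 and 26.3 CPM in WT and 41.2 to 49.1 CPM in PCGF6-KO.

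Some of the 10 genes have near copies or overlapping genes whose reads the counting could have split. RBBP4P1 had 70 to 103 counts a library and SUZ12P1 had 221 to 314, against 4180 to 5969 for RBBP4 and 991 to 1215 for SUZ12. CUTA, which shares 12 exonic bases with PHF1, had 1290 and 1352 counts in the WT libraries and 980 to 1095 in those of PCGF6-KO.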

How the data were processed

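RNA-seq libraries of WT PGP1 cells and of PCGF6-KO clones 1 and 2 (2 each) were used, and ChIP-seq was not analysed here. The authors trimmed reads with Trim Galore (0.6.2), aligned them to GRCh38 with HISAT2 (2.1.0), counted them per gene with featureCounts, and deposited raw counts for 57133 genes beside gene lengths. The annotation release, strand setting and treatment of multi-mapped reads are not given in the sources used here.

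Counts were filtered with filterByExpr, scaled by TMM and fitted over all genes with glmQLFit and glmQLFTest of edgeR (4.0.16, limma 3.58.1, R 4.3.3), PCGF6-KO (4 libraries) against WT (2) in a fit of 2 groups, and the clones in a fit of 3 groups. P-values were adjusted by Benjamini-Hochberg over all 17672 genes, and calls required an adjusted p under 0.05 with a log2 fold change beyond 0.6 in size. The common biological coefficient of variation was 0.12, and replicates differed by a chi-square per gene of 2.40 (WT), 4.50 (clone 1) and 3.20 (clone 2), where counting error gives about one. Shares were compared by exact permutation tests over libraries, not over lines. DESeq2 (1.42.0), other normalizations, filters, thresholds, a replicate block and leaving out each library were alternatives, and a coding length from GENCODE 44 was added after seeing the data. Genes named were all 10 subunits, PCGF6, called genes of the lists (at most 2 each for the RBBP4 complexes and cell division), and for each called subunit the 2 genes with the smallest Euclidean distance in log2 CPM (pseudocount 0.5 CPM). SOX2, LIN28A, DPPA4, NANOG, OTX2, ZIC1, PAX6, KDR, CDH5, TYMS, SYNC, CUTA, the pseudogenes and EZHIP were named after their values were seen. The subunits and lists were chosen with earlier results of these data known. The steps were tested on simulated counts.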

Additional observations from a re-analysis of the deposited data

Results flagged for a closer look

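JARID2 and PHF1 differed between the clones in a test of the difference itself. The log2 difference of clone 2 against clone 1 was −0.16 for JARID2 (adjusted p = 0.0367, edgeR) and −0.27 for PHF1 (adjusted p = 0.0256), both under the fold limit. By adjusted p alone, these were 2 of 10 subunit genes, against 19.5% of all tested genes. Each of the 2 clone 2 libraries was below each of the 2 clone 1 libraries in both genes. The same held for EZH1, EED and AEBP2, whose differences did not pass (adjusted p = 0.162, 0.542 and 0.354, edgeR), so this order does not set the 2 genes apart. JARID2 no longer passed by DESeq2, without clone 1 replicate 2 or without clone 2 replicate 1, with adjusted p between 0.00313 and 0.284 over the alternatives. PHF1 no longer passed by DESeq2, with no filter, without clone 1 replicate 1, or without either clone 2 library, with adjusted p between 0.00461 and 0.116. No group had 4 or more libraries other than PCGF6-KO, in which no subunit gene had a library set apart from the other 3 by Dixon's criterion.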

How the results depend on the processing

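The 1 call in PCGF6-KO against WT, PHF19, was made under every alternative that kept both WT libraries, and by adjusted p alone 4 subunit genes passed. The log2 fold change of PHF19 was 0.6015 without WT replicate 2, barely over the limit of 0.6, and 0.8924 without WT replicate 1. Of the 53 listed genes tested, 6 were called, where 23.6% of all tested genes were, and 6 also with any 1 PCGF6-KO library left out. At 10 counts or more in every library 5 were called, where EPOP was not tested. By adjusted p alone 26 of 53 passed, where 37.1% of all tested genes did. In clone 1, 1 call became 2 (PHF19 and RBBP4) by DESeq2, upper-quartile normalization or a fold change over 1.5, became 5 by adjusted p alone, and ran from 0 (without WT replicate 2 or clone 1 replicate 1) to 2 (without WT replicate 1 or clone 1 replicate 2). In clone 2 there was 1 call, and 7 by adjusted p alone; between the clones there were 0, and 2 by adjusted p alone.

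Differences between replicates 1 and 2 correlated by 0.07 to 0.20 across 13863 genes, which cannot decide whether the replicate numbers pair the libraries. With the replicate block, 1, 1, 1 and 0 subunit genes were called in PCGF6-KO, clone 1, clone 2 and between the clones, as without it, and 6 listed genes. By adjusted p alone the block took PHF19 (0.0234) and RBBP4 (0.011) past the threshold between the clones.

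The share differences (percentage points) ran, with libraries left out, from 1.32 to 2.78 for EZH2, −6.19 to −4.28 for MTF2, 7.08 to 8.97 for PHF19 and −4.18 to −2.44 for JARID2 with AEBP2. With coding length the MTF2 difference was −7.13. The planned length of RefSeq proteins was not run, as that table was not used here.

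Signs that changed belonged to genes near 0. With libraries left out, the log2 fold change in PCGF6-KO ran from −0.18 to 0.0345 for EZH1 and from −0.16 to 0.16 for AEBP2, that in clone 1 from −0.0741 to 0.14 for EZH1 and from −0.0971 to 0.23 for AEBP2, that in clone 2 from −0.0573 to 0.10 for EED and from −0.24 to 0.083 for AEBP2, and that between the clones from −0.0612 to 0.0981 for MTF2. AEBP2 in PCGF6-KO was 0.0091 at 10 counts or more in every library, and under upper-quartile normalization EED in clone 2 was −0.0254 and MTF2 between the clones −0.0062. The cause was not tested. EED and EZH1 had the fewest counts, 274 to 432 a library, with standard errors of 0.104 and 0.125 in PCGF6-KO against WT. AEBP2, with 621 to 851 counts a library, had a standard error of 0.106.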
